A study of Drosophila melanogaster with 12 samples.

Results

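Tetraspanin genes were measured in SL2 cells, an established *Drosophila melanogaster* line with macrophage-like properties, and 12 of the 32 that the array resolves were above the level taken as expressed. Members are the genes that the platform annotation names Tsp followed by a digit. There were 32 of them among 11982 genes that have a probe set of their own, each with exactly 1 such probe set. The arrays form 4 groups of 3 biological repeats. All cells received 12.5 µg/ml dsRNA for 4 days, directed against Tis11 (Tis11 kd) or, as the control, against GFP (GFP kd). In 2 of the groups lipopolysaccharide (LPS, from *E. coli* O55:B5, 10 µg/ml) was added for the last 4 h. The groups are therefore Tis11 kd + LPS, Tis11 kd, GFP kd + LPS and GFP kd. Tis11 is the fly relative of tristetraprolin, a protein that binds AU-rich elements in the 3′UTR of mRNAs and promotes their decay, and the arrays were made to find mRNAs that depend on it. The depth of the Tis11 knockdown was not analysed here, and the study reports that it was checked separately by Northern blot and qPCR. RNA was taken from whole cultures, where fewer cells that express a gene and less mRNA per cell cannot be told apart.

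Tetraspanins are small membrane proteins that cross the membrane 4 times and carry a conserved CCG motif in the larger of their extracellular loops. They bind each other and partner proteins, and so organise patches of membrane at the cell surface, in endosomes and lysosomes and in the vesicles that cells release. In flies many of them lie in 1 tandem cluster, at 42E on chromosome arm 2R. A few have roles that are known in detail. Tsp3A, Tsp26A and Tsp86D form the TspanC8 group, which acts on the transport and activity of the protease Kuzbanian and thereby on Notch. Tsp2A is a component of smooth septate junctions in the gut. Tsp42Ej, also called sunglasses, is a lysosomal protein that takes part in the light-induced degradation of rhodopsin. Late bloomer (lbm), a tetraspanin of the 42E cluster with a name of its own, helps motor neurons form synapses.

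All values are RMA signals on the log2 scale, so that a difference of 1 is 2-fold. A mean of at least 6 over the 12 arrays was taken as expressed, which is a level and not a detection call. The signal of a probe set also depends on how well its probes bind, so levels are compared between groups and not between genes. Of the 32 tetraspanin genes, 12 (37.5%) reached a mean of 6, against 5903 of the 11982 genes (49.3%) and 7194 of the 18769 probe sets (38.3%). The share of genes takes the highest probe set of each gene, whereas each tetraspanin gene has only 1. The 12 are Tsp2A, Tsp3A, Tsp39D, Tsp42Ea, Tsp42Ed, Tsp42Ee, Tsp42Ef, Tsp42Eg, Tsp42El, Tsp86D, Tsp96F and Tsp97E. The TspanC8 members, Tsp3A (mean 8.39) and Tsp86D (mean 8.49), were among them, while Tsp26A, of the same group, was the highest of those under the level, at 5.74. The lowest of the 12 was Tsp2A, at 6.13. By chromosome arm, 3 of 3 members on 3R, 2 of 3 on X, 6 of 18 on 2R, 1 of 5 on 2L and 0 of 3 on 3L were expressed.

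**Figure D1:**
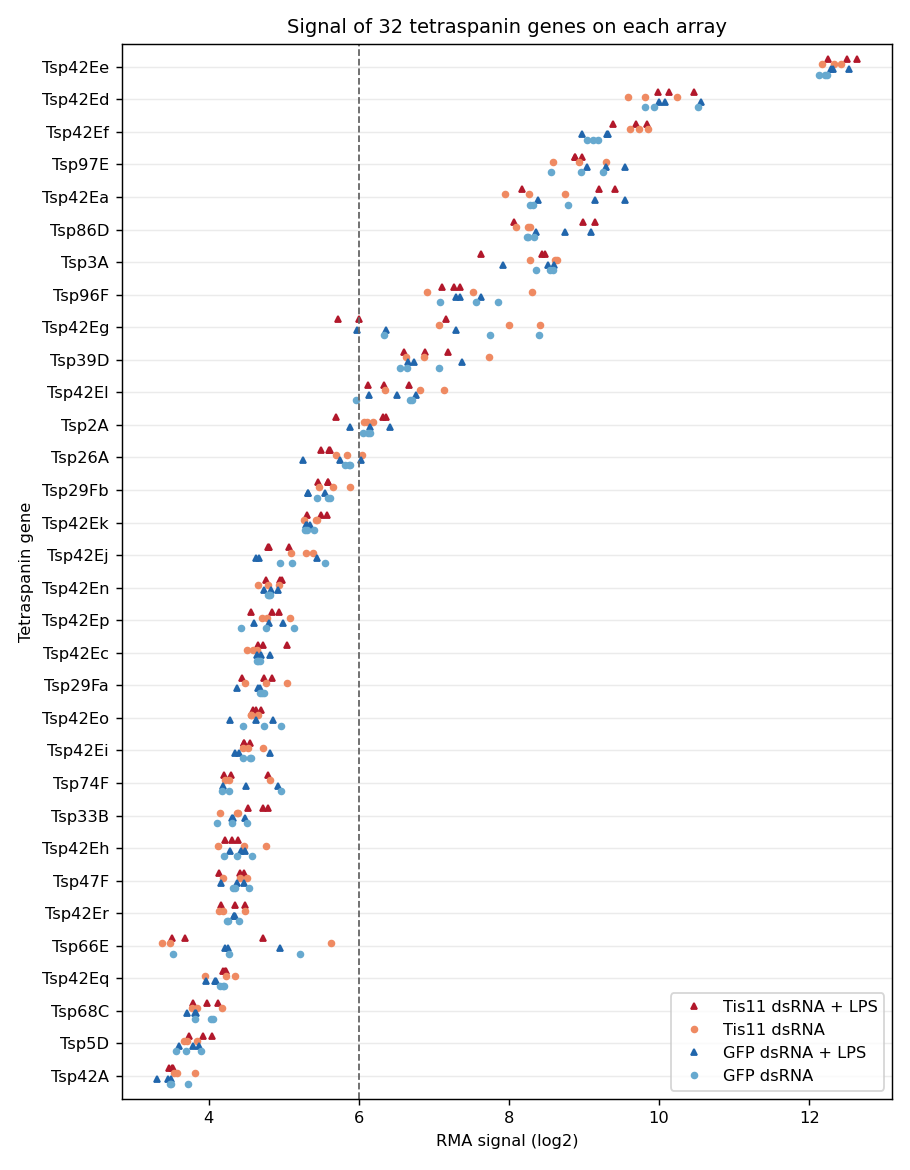
RMA signal (log2, horizontal axis) of the 32 tetraspanin genes, 1 gene a row, with 1 point for each of the 12 arrays coloured by group, and a dashed line at 6. The rows are sorted by mean for display; 12 genes lie to the right of the line on average, and the points of the other 20 lie at or below 6.05.

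The other 20 members had means from 3.54 (Tsp42A) to 5.74 (Tsp26A). They are Tsp5D, Tsp26A, Tsp29Fa, Tsp29Fb, Tsp33B, Tsp42A, Tsp42Ec, Tsp42Eh, Tsp42Ei, Tsp42Ej, Tsp42Ek, Tsp42En, Tsp42Eo, Tsp42Ep, Tsp42Eq, Tsp42Er, Tsp47F, Tsp66E, Tsp68C and Tsp74F. Of their 240 array values, 2 were at least 6. At this level a difference between groups is compressed, and a low signal does not show that the gene is silent. Tsp66E had the widest spread among them, from 3.38 to 5.63. With a level of 5 in place of 6, 16 members counted as expressed, and with a level of 7, 9 did. The further genes of this name, Tsp42Eb and Tsp66A, are measured only by probe sets shared with other genes, which averaged from 3.18 to 5.14, and they are not counted.

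The label of the cells fits their hemocyte markers, and some markers of other blood cell types were also high. All 8 hemocyte markers (Hml, NimC1, eater, Pxn, Sr-CI, srp, He and Col4a1) averaged at least 7.20, while 0 of 4 fat body markers and 0 of 3 neuron markers reached 6. Among genes of other blood cell types, 2 of 3 lamellocyte and 2 of 4 crystal cell markers reached 6. These were mys (9.28) and PPO3 (8.63) for lamellocytes, and PPO2 (9.55) and PPO1 (7.54) for crystal cells. The others were atilla at 5.07, peb at 4.81 and lz, which defines crystal cells, at 3.44. Of 4 midgut enterocyte markers 1 reached 6, betaTry at 6.03. The summed linear signal of the hemocyte markers ran from 11561 to 19739 in Tis11 kd + LPS, from 16579 to 24948 in Tis11 kd, from 9771 to 18506 in GFP kd + LPS and from 12110 to 17538 in GFP kd. This sum includes Pxn, which the study took as Tis11-sensitive.

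The 42E cluster holds 18 tetraspanin genes in the RefSeq annotation (Release 6), of which 16 are members with a probe set of their own, and 6 of these 16 were expressed, the same count as among the 16 members elsewhere. Tsp42Ed, Tsp42Ee, Tsp42Ef and Tsp42Eg, with means of 10.1, 12.3, 9.42 and 7.04, lie next to each other in the list of tetraspanins, and Tsp42Ea (8.68) stands at the start of the cluster, with Tsp42Ec (4.69) in between. The next 4 genes, Tsp42Eh, Tsp42Ei, Tsp42Ej and Tsp42Ek, had means from 4.39 to 5.37. Tsp42El (6.52) and lbm (7.36) follow, and the last 5 genes, from Tsp42En to Tsp42Er, had means of 4.16 to 4.83. The span also holds 9 listed genes that are not tetraspanins, among them Pgant3. The probe set of Tsp42Ea, whose gene overlaps Tsp42Eb, has the suffix that Affymetrix gives to probes matching more than 1 transcript, so its signal may not come from Tsp42Ea alone.

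**Figure D2:**
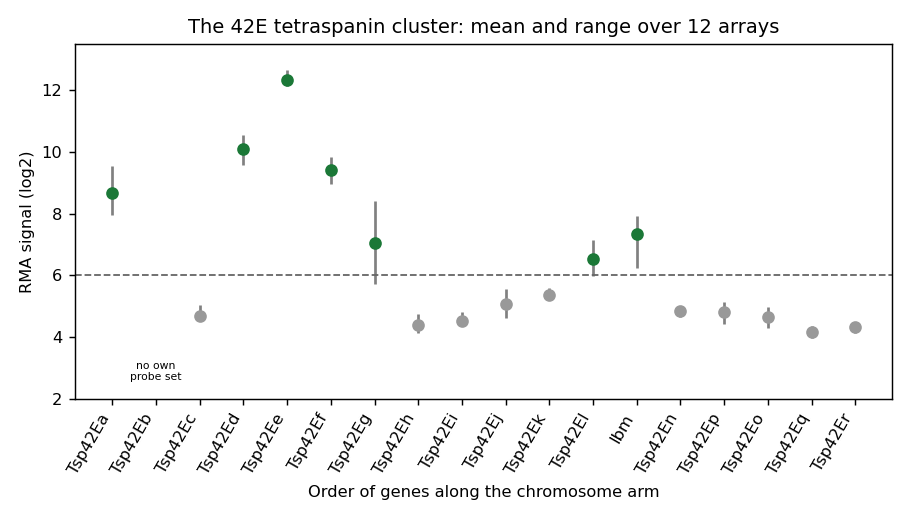
Mean RMA signal (log2, point) and the range over the 12 arrays (line) of the tetraspanin genes of the 42E cluster, in their order along the chromosome arm, with a dashed line at 6 and green points for means of at least 6. Tsp42Ed to Tsp42Eg form a run of 4 neighbours above the line.

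Tsp42Ef was the only member whose Tis11 kd arrays all lay above the GFP kd arrays, with LPS and without. Its signal was 9.84, 9.69 and 9.39 in Tis11 kd + LPS, 9.61, 9.85 and 9.73 in Tis11 kd, 9.32, 8.97 and 9.30 in GFP kd + LPS, and 9.05, 9.19 and 9.12 in GFP kd. The lowest of the 6 Tis11 kd arrays was only just above the highest of the 6 GFP kd arrays. A complete separation of this kind, in this direction, was seen in 22 of 18769 probe sets (0.117%) and, among probe sets that average 6 or more, in 14 of 7194 (0.195%). It includes the arrays without LPS, from which the study had chosen Tsp42Ef as Tis11-sensitive, so these shares are not independent evidence.

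Without LPS, Tsp42Ef averaged 9.73 ± 0.12 in Tis11 kd and 9.12 ± 0.07 in GFP kd (SD, n = 3 each), a log2 difference of 0.61 (SE 0.10, 95% interval 0.37 to 0.85), or 1.53-fold. The unadjusted limma p was 0.00051 and the p adjusted over all 18769 probe sets was 1.00, so the difference did not pass the threshold of 0.05. Tsp42Ef was 1 of the mRNAs that the study took as Tis11-sensitive from these same arrays, and its difference without LPS is therefore not independent evidence. The 6 LPS arrays were not used for that choice. They are not fully independent of it, as arrays with and without LPS deviated together when matched across replicate numbers. Over probe sets that average 6 or more, r was 0.47 to 0.70 in Tis11 kd and 0.67 to 0.87 in GFP kd. In the LPS arrays Tsp42Ef averaged 9.64 ± 0.23 in Tis11 kd + LPS and 9.20 ± 0.20 in GFP kd + LPS, a difference of 0.44 (SE 0.16, interval 0.05 to 0.83, 1.36-fold). The groups did not overlap, and an exact two-sided permutation test over the 6 arrays gave p = 0.1, the smallest that 3 arrays against 3 can give. Its limma p was 0.032 and its adjusted p 1.00. The study also listed qPCR primers for Tsp42Ef, and most of the Tis11-sensitive mRNAs that it tested by qPCR were raised there too. The qPCR value of Tsp42Ef was not used here.

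The LPS differences of Tsp42Ef were smaller than their standard errors. The LPS difference was −0.09 (SE 0.15) in Tis11 kd cells and 0.08 (SE 0.12) in GFP kd cells, and the groups overlapped in both. The change of the Tis11 difference with LPS, tested as an interaction over 12 arrays, was −0.17 (SE 0.19, interval −0.59 to 0.25, limma adjusted p = 1.00). In the order of group means, Tis11 kd and Tis11 kd + LPS were the highest, GFP kd + LPS and GFP kd the lowest, and neighbours within each pair did not differ beyond their spread. Averaged over cells with and without LPS, a contrast chosen after the data were seen, the Tis11 difference was 0.53 (SE 0.10, interval 0.31 to 0.74, limma adjusted p = 0.96).

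**Figure D3:**
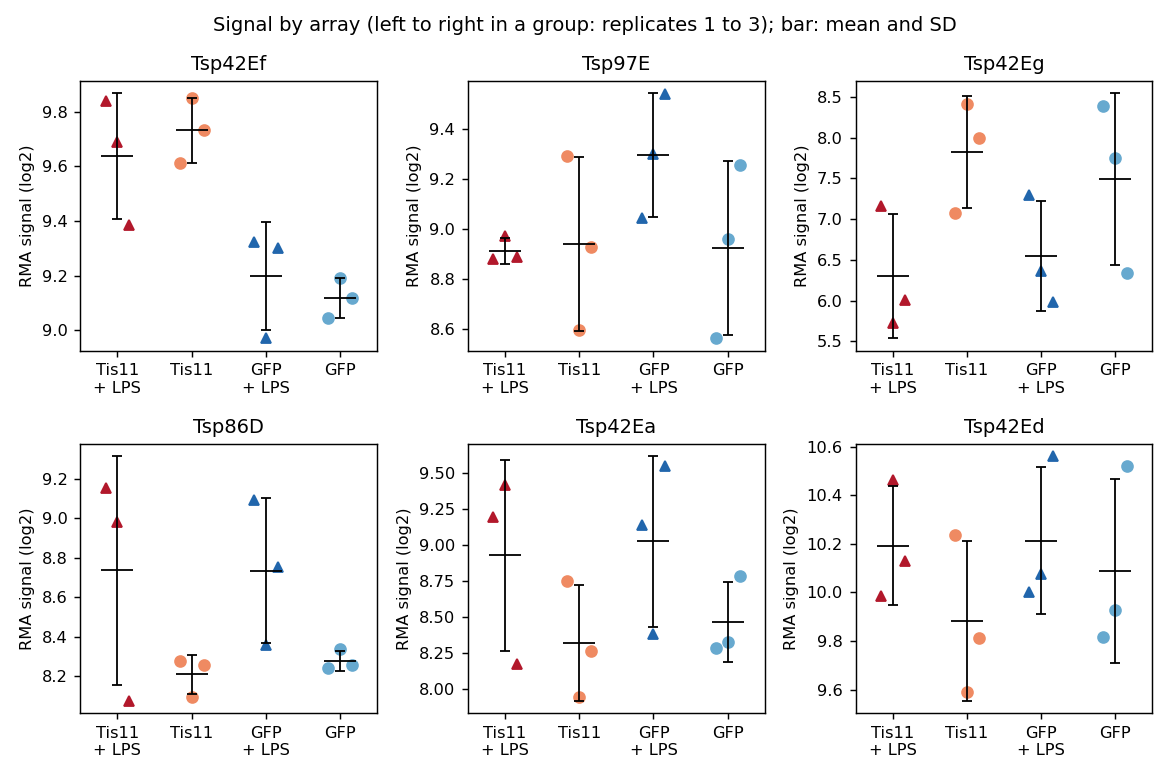
RMA signal (log2) of 6 expressed tetraspanin genes on each array, with 3 arrays in each of the groups Tis11 kd + LPS, Tis11 kd, GFP kd + LPS and GFP kd from left to right, and bars for the mean and SD. Tsp42Ef separates the 6 Tis11 kd arrays from the 6 GFP kd arrays, whereas the arrays of Tsp42Eg spread widely, in GFP kd from 6.34 to 8.40.

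Among the other members, Tis11 kd without LPS left no gap between groups. Of the 32 members 1, Tsp42Ef, had groups that did not overlap, where the share over all probe sets was 4.47%. The same member was the only 1 past the 0.5 that the study used as its threshold (0.298% of all probe sets were over 0.5), with 0 of 32 under −0.5 (0.107%), and the only one with an unadjusted limma p under 0.05 (1.1% of all probe sets). By limma, 0 of 32 members and 0 of 18769 probe sets passed after adjustment, and the methods' t-test likewise had 1 member under an unadjusted 0.05 and 0 after adjustment. The median difference of the 12 expressed members was 0.05, with 9 of 12 above 0. For all probe sets that average 6 or more it was 0.01, with 55.5% above 0. The median of the 12 was −0.027 without replicate 1 of Tis11 kd and −0.011 without replicate 1 of GFP kd.

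Besides Tsp42Ef, 3 expressed members differed by at least 0.3 between Tis11 kd and GFP kd without LPS, all with overlapping groups. Tsp42Eg was at 7.07, 8.42 and 8.0 in Tis11 kd and at 8.40, 7.75 and 6.34 in GFP kd, a difference of 0.34 (SE 0.56). Leaving out 1 array gave −0.24 (replicate 3 of GFP kd) to 0.79 (replicate 1 of GFP kd). Tsp39D was at 7.73, 6.63 and 6.87 in Tis11 kd and at 6.54, 6.64 and 7.07 in GFP kd, a difference of 0.32 (SE 0.29), and it was −0.0031 without replicate 1 of Tis11 kd and 0.55 without replicate 2. Tsp42El was at 7.13, 6.35 and 6.82 in Tis11 kd and at 5.97, 6.68 and 6.72 in GFP kd, a difference of 0.31 (SE 0.27), with 0.068 without replicate 1 of GFP kd, 0.13 without replicate 1 of Tis11 kd and 0.52 without replicate 2 of Tis11 kd. In each of these the standard error, from a fit without pairing, was nearly as large as the difference or larger. The unadjusted limma p-values of Tsp42Eg, Tsp39D and Tsp42El were 0.57, 0.31 and 0.28. Over probe sets that average 6 or more, replicates 1, 2 and 3 of Tis11 kd deviated together with replicates 3, 1 and 2 of GFP kd (r = 0.92, 0.93 and 0.80). Matched in this way, the Tis11 kd array was the higher of each pair in these 3 genes. The labels do not give this matching, and a paired difference was not tested. The other 8 expressed members differed by −0.21 to 0.12.

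With LPS present, Tsp97E was the second expressed member to separate the knockdowns. It was at 8.88, 8.97 and 8.89 in Tis11 kd + LPS and at 9.04, 9.30 and 9.54 in GFP kd + LPS. The values of Tis11 kd + LPS were all below those of GFP kd + LPS and lay close together. The difference was −0.38 (SE 0.14, interval −0.73 to −0.04, limma adjusted p = 1.00). The unadjusted limma p was 0.033. Without LPS, Tsp97E was at 9.29, 8.59 and 8.93 in Tis11 kd and at 8.56, 8.96 and 9.25 in GFP kd, where the groups covered nearly the same range. The interaction for Tsp97E was −0.40 with an unadjusted limma p of 0.20, so that a change of its Tis11 difference with LPS was not shown.

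In the LPS-treated cells 4 of the 32 members had Tis11 kd and GFP kd groups that did not overlap, against 9.73% of all probe sets. Tsp33B, Tsp42Ef and Tsp42Eq were higher and Tsp97E was lower in Tis11 kd + LPS. Of the 4, Tsp33B (4.68 in Tis11 kd + LPS, 4.37 in GFP kd + LPS) and Tsp42Eq (4.21 in Tis11 kd + LPS, 4.05 in GFP kd + LPS) lie below the level of 6. Of the 32 members 0 were over 0.5 (0.0959% of all probe sets), and 1 was under −0.5 (0.517% of all probe sets), Tsp66E, which averaged 3.98 ± 0.65 in Tis11 kd + LPS and 4.48 ± 0.41 in GFP kd + LPS. An unadjusted limma p under 0.05 was found for 3 members, Tsp33B, Tsp42Ef and Tsp97E (2.6% of all probe sets), and by the methods' t-test for 2. None passed after adjustment with either. The other 10 expressed members differed by −0.25 to 0.09. The median over the 12 was −0.06, with 3 of 12 above 0. For all probe sets that average 6 or more the median was −0.08, with 26.8% above 0. The median over the 12 was 0.12 without replicate 3 of Tis11 kd + LPS and 0.051 without replicate 3 of GFP kd + LPS.

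**Figure D4:**
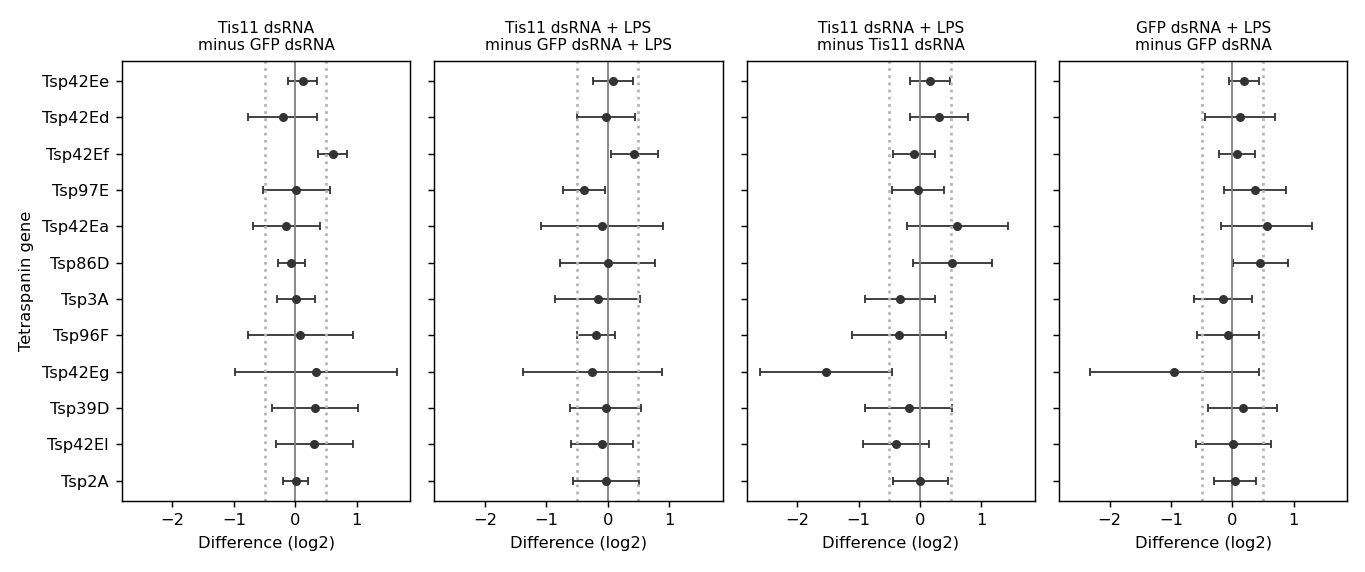
Log2 differences of the 12 expressed tetraspanin genes in the 4 comparisons, with 95% intervals from limma, a solid line at 0 and dotted lines at −0.5 and 0.5. The intervals of Tsp42Ef lie above 0 in both Tis11 comparisons, Tsp42Eg has the lowest difference in both LPS comparisons, and most other intervals include 0.

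LPS gave its largest difference among tetraspanins in Tsp42Eg, the neighbour of Tsp42Ef. Tsp42Eg was at 7.16, 5.73 and 6.0 in Tis11 kd + LPS against 7.07, 8.42 and 8.0 in Tis11 kd, and at 7.29, 6.37 and 5.98 in GFP kd + LPS against 8.40, 7.75 and 6.34 in GFP kd. The groups overlapped, as 1 LPS array in Tis11 kd and 2 in GFP kd lay above the lowest untreated array. The differences were −1.53 (SE 0.46, interval −2.61 to −0.45) in Tis11 kd and −0.95 (SE 0.57, interval −2.32 to 0.43) in GFP kd. Unadjusted limma p-values were 0.012 and 0.15, and adjusted ones 1.00 in both. In GFP kd the difference was −1.52 without replicate 3 of GFP kd and −0.49 without replicate 1. These comparisons share no arrays, but they are not independent. Matched arrays of the 2 knockdowns deviated together, with r of 0.80 to 0.93 without LPS and 0.86 to 0.89 with LPS. With LPS and untreated arrays matched by their shared deviations, each LPS array of Tsp42Eg lay below its untreated partner in both knockdowns. A paired difference was not tested. Averaged over both knockdowns, a contrast also chosen after the data were seen, the difference was −1.24 (SE 0.41, interval −2.14 to −0.34, limma adjusted p = 0.82). The spread of Tsp42Eg within a group was wide, with an SD of 0.81, a value exceeded by 2.86% of probe sets that average 6 or more.

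Tsp86D and Tsp42Ea were higher with LPS on average in both knockdowns. Tsp86D was at 9.15, 8.98 and 8.07 in Tis11 kd + LPS against 8.28, 8.10 and 8.25 in Tis11 kd, and at 9.09, 8.36 and 8.75 in GFP kd + LPS against 8.24, 8.34 and 8.25 in GFP kd. The untreated arrays lay between 8.10 and 8.34, and 5 of the 6 LPS arrays were above all of them, the exception being replicate 3 of Tis11 kd + LPS. The differences of Tsp86D were 0.53 (SE 0.27, interval −0.12 to 1.17) in Tis11 kd and 0.46 (SE 0.19, interval 0.01 to 0.90) in GFP kd, with unadjusted limma p-values of 0.094 and 0.046 and adjusted ones of 1.00. In Tis11 kd the difference was 0.86 without that replicate, where its adjusted limma p of 0.16 was the lowest over the alternatives of this comparison, and 0.32 without replicate 1 of Tis11 kd + LPS. In GFP kd it was 0.28 without replicate 1 of GFP kd + LPS and 0.65 without replicate 2.

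Tsp42Ea was at 9.19, 9.42 and 8.18 in Tis11 kd + LPS against 8.75, 7.95 and 8.26 in Tis11 kd, and at 9.14, 8.38 and 9.55 in GFP kd + LPS against 8.28, 8.32 and 8.79 in GFP kd. The groups overlapped in both knockdowns. Its differences were 0.61 (SE 0.35, interval −0.22 to 1.44) in Tis11 kd and 0.56 (SE 0.31, interval −0.18 to 1.30) in GFP kd, with unadjusted limma p-values of 0.12 in both. In Tis11 kd the difference was 0.37 without replicate 2 of Tis11 kd + LPS and 0.99 without replicate 3. In GFP kd it was 0.30 without replicate 3 of GFP kd + LPS and 0.88 without replicate 2. Averaged over both knockdowns the LPS difference was 0.58 (SE 0.26) for Tsp42Ea and 0.49 (SE 0.18) for Tsp86D, with adjusted limma p-values of 1.00 and 0.99.

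Among the expressed members, 5 other differences with LPS reached 0.3. In Tis11 kd they were −0.39 (SE 0.23) for Tsp42El, −0.34 (SE 0.32) for Tsp96F, −0.33 (SE 0.24) for Tsp3A and 0.31 (SE 0.20) for Tsp42Ed, with unadjusted limma p-values from 0.13 to 0.33. In GFP kd Tsp97E differed by 0.37 (SE 0.21), with an unadjusted limma p of 0.12. The groups overlapped in all 5, and each difference changed by over 1.5 times when 1 array was left out. Tsp3A was at −0.050 without replicate 3 of Tis11 kd + LPS. Tsp42El was at −0.21 without replicate 1 of Tis11 kd and at −0.60 without replicate 2, and Tsp96F at 0.028 and −0.67 in the same omissions. Tsp42Ed was at 0.17 without replicate 2 of Tis11 kd, at 0.18 without replicate 2 of Tis11 kd + LPS and at 0.49 without replicate 1 of Tis11 kd. Tsp97E in GFP kd was at 0.19 without replicate 1 of GFP kd. The remaining expressed members, Tsp42Ef included, ranged from −0.18 to 0.16 in Tis11 kd and from −0.15 to 0.19 in GFP kd.

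As counts, LPS in Tis11 kd cells put 2 of 32 members over 0.5 (0.73% of all probe sets) and 1 under −0.5 (1.36%), and in GFP kd cells 1 over 0.5 (1.15%) and 1 under −0.5 (0.373%). Groups did not overlap in 5 members in Tis11 kd (8.37% of all probe sets), namely Tsp26A, Tsp33B, Tsp42A, Tsp42Ec and Tsp42Ej, all of them below the level of 6. In GFP kd they did not overlap in 4 (6.49%), of which Tsp42Ee and Tsp86D were expressed and higher with LPS, and Tsp29Fa and Tsp42Eq were not expressed. An unadjusted limma p under 0.05 was found for 3 members in Tis11 kd (2.71% of all probe sets), Tsp33B, Tsp42Eg and Tsp42Ej, and for 1 in GFP kd (1.67%), Tsp86D. By the methods' t-test these counts were 2 and 1. After adjustment 0 members passed with either test, whereas limma called 15 probe sets in Tis11 kd (0.0799%) and 10 in GFP kd (0.0533%), all of them higher with LPS. The medians of the 12 expressed members were −0.06 in Tis11 kd and 0.10 in GFP kd, beside −0.08 and 0.01 for all probe sets that average 6 or more. The sign of both turned with 1 array left out, to 0.085 without replicate 1 of Tis11 kd and 0.0083 without replicate 3 of Tis11 kd + LPS, and in GFP kd to −0.029 without replicate 3 of GFP kd + LPS.

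The interaction was called for 0 of 32 members by limma, with 0 under an unadjusted 0.05 (1.99% of all probe sets). Among the expressed members it ran from −0.59 for Tsp42Eg (interval −2.39 to 1.21) to 0.19 for Tsp42Ed. Smaller changes of the LPS response with Tis11 kd may have been missed, and the smallest change detectable in each member was not determined.

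Tsp42Ee and Tsp2A differed by at most 0.19 in all 4 comparisons. Tsp42Ee was at 12.64, 12.51 and 12.25 in Tis11 kd + LPS, 12.43, 12.17 and 12.33 in Tis11 kd, 12.53, 12.32 and 12.29 in GFP kd + LPS, and 12.14, 12.21 and 12.23 in GFP kd. The 3 arrays of GFP kd + LPS were all above those of GFP kd, by a small step, and the other groups overlapped. Tsp42Ee had the smallest spread within groups of the 12, with an SD of 0.14. Tsp2A, the septate junction protein, was at 6.32, 6.37 and 5.70 in Tis11 kd + LPS, 6.11, 6.19 and 6.07 in Tis11 kd, 6.16, 5.89 and 6.41 in GFP kd + LPS, and 6.15, 6.06 and 6.12 in GFP kd. Its 4 group means lay between 6.11 and 6.15, although its arrays spread more widely with LPS.

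Tsp3A, the other expressed TspanC8 member, was at 8.48, 8.45 and 7.63 in Tis11 kd + LPS, 8.64, 8.28 and 8.61 in Tis11 kd, 8.53, 7.92 and 8.6 in GFP kd + LPS, and 8.37, 8.54 and 8.59 in GFP kd. With LPS a single array in each knockdown lay below the rest. Tsp42Ed was at 9.99, 10.46 and 10.13 in Tis11 kd + LPS, 10.24, 9.59 and 9.81 in Tis11 kd, 10.00, 10.08 and 10.56 in GFP kd + LPS, and 9.82, 9.93 and 10.52 in GFP kd. Its groups overlapped in all comparisons.

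Tsp96F was at 7.35, 7.26 and 7.11 in Tis11 kd + LPS, 8.31, 6.91 and 7.53 in Tis11 kd, 7.35, 7.63 and 7.30 in GFP kd + LPS, and 7.09, 7.56 and 7.85 in GFP kd. The widest spread was in Tis11 kd, where replicates 1 and 2 were the highest and the lowest of all 12 arrays. With LPS, Tsp39D was at 6.89, 7.19 and 6.60 in Tis11 kd and at 6.65, 6.74 and 7.38 in GFP kd, and Tsp42El at 6.67, 6.34 and 6.12 in Tis11 kd and at 6.50, 6.13 and 6.77 in GFP kd. In both genes the LPS groups of the 2 knockdowns overlapped.

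Part of the spread was shared between members. Replicate 3 of Tis11 kd + LPS was below the mean of the other 2 arrays of its group in 12 of 12 expressed members, with a median of −0.41, while 47.9% of all probe sets that average 6 or more were below in that array. Replicate 2 of GFP kd + LPS was below in 10 of 12 (median −0.31, 45.6% of those probe sets) and replicate 1 of GFP kd in 10 of 12 (median −0.24, 50.2%). Replicate 2 of Tis11 kd was below in 9 of 12 (median −0.39, 56.8%). The members did not all move in the same arrays. In GFP kd replicate 3, Tsp42Eg was 1.16 below the mean of its group, whereas Tsp42Ed was 0.43, Tsp96F 0.36 and Tsp97E 0.33 above theirs. In Tis11 kd replicate 1, likewise, Tsp42Eg was 0.76 below and Tsp96F 0.73, Tsp39D 0.65 and Tsp42Ed 0.36 above. Tsp3A, Tsp42Ea and Tsp86D deviated together in the LPS groups, where they were 0.55, 0.75 and 0.66 below their means in replicate 3 of Tis11 kd + LPS and 0.43, 0.64 and 0.38 below in replicate 2 of GFP kd + LPS. Tsp42Ef deviated by at most 0.25 on any array.

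**Figure D5:**
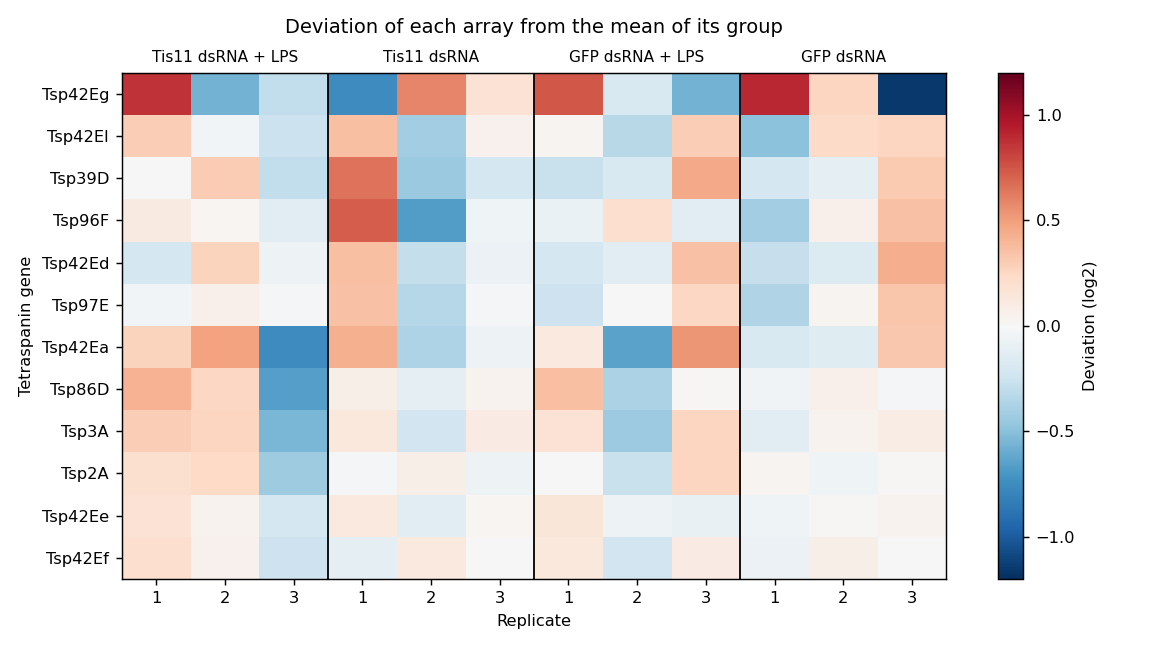
Deviation (log2, colour) of each array from the mean of its group for the 12 expressed tetraspanin genes, with red above and blue below the mean and the replicates of each group side by side. Replicate 3 of Tis11 kd + LPS is blue in nearly every row, and Tsp42Eg has the opposite colour to Tsp42Ed and Tsp97E in most columns.

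After the group means were subtracted, the 5 genes whose pattern over the 12 arrays was most like that of Tsp42Ef, among 5902 expressed genes, were CG5850 (Pearson's r = 0.95), drongo (0.94), shi (0.94), CG11686 (0.94) and CG42327 (0.94). They were picked as the highest of all genes and all points come from the same 12 hybridisations, so these values are a description. shi encodes dynamin, which pinches vesicles from the membrane in endocytosis.

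Genes that work with tetraspanins were measured beside them, and 0 of them passed the limma test in any of the 4 comparisons. Of the Notch receptor, its ligands, proteases and nuclear partners, 6 of 12 have a probe set of their own. kuz, which encodes the protease Kuzbanian that TspanC8 proteins act on, averaged 7.83 ± 0.23 in Tis11 kd and 7.62 ± 0.20 in GFP kd, a difference of 0.21 (SE 0.16), and its LPS differences were −0.06 (SE 0.22) in Tis11 kd and 0.10 (SE 0.17) in GFP kd. H (Hairless), a repressor of Notch target genes, differed by −0.34 (SE 0.14) with LPS in Tis11 kd, the only member of the list with an unadjusted limma p under 0.05 (0.045). The other differences on this list lay between −0.22 and 0.12.

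All 13 components of the ESCRT machinery, which sorts membrane proteins into multivesicular bodies, were expressed. Their differences lay between −0.27 (Vps4, LPS in Tis11 kd) and 0.23 (ALiX, LPS in GFP kd), with 0 of 13 under an unadjusted limma p of 0.05 in any comparison. Vps24 was at 9.46 in Tis11 kd and 9.23 in GFP kd, a difference of 0.23 (SE 0.17).

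Among smooth septate junction genes, Ssk, a partner of Tsp2A, averaged 6.38 over the 12 arrays, whereas mesh and hoka, at 4.63 and 4.96, were below the level of 6. Ssk differed by 0.38 (SE 0.18) with LPS in Tis11 kd and by 0.20 (SE 0.36) in GFP kd. lbm was at 7.58, 7.5 and 6.23 in Tis11 kd + LPS, 7.79, 7.52 and 7.92 in Tis11 kd, 7.48, 7.09 and 7.08 in GFP kd + LPS, and 7.29, 7.69 and 7.15 in GFP kd. Tis11 kd differed from GFP kd by 0.36 (SE 0.17) without LPS and by −0.11 (SE 0.37) with LPS. The LPS difference of lbm was −0.64 (SE 0.35) in Tis11 kd, where the lowest array was again replicate 3 of Tis11 kd + LPS, and −0.16 (SE 0.18) in GFP kd.

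Markers of other blood cells were compared in the same groups. The summed linear signal of the lamellocyte markers ran from 964 to 1454 in Tis11 kd + LPS against 768 to 1213 in Tis11 kd, and from 922 to 1565 in GFP kd + LPS against 858 to 1244 in GFP kd, and 3 of 3 were above 0 in both LPS differences. The crystal cell markers ran from 630 to 3008 in Tis11 kd + LPS against 594 to 1050 in Tis11 kd, and from 775 to 2443 in GFP kd + LPS against 645 to 1234 in GFP kd. By group means 4 of 4 were above 0 in both, but the median sums went the other way. They were 666 with LPS against 837 in Tis11 kd, and 894 against 995 in GFP kd, so the high upper ends were single arrays. The median sums of the lamellocyte markers were higher with LPS in both knockdowns. The ranges overlapped and 0 of these markers passed. Among all probe sets that average 6 or more, 32.7% were above 0 for LPS in Tis11 kd and 53.6% in GFP kd. As atilla, peb and lz average under 6, the shares over all probe sets also apply, 53.7% and 43.3%. Of the hemocyte markers, 7 of 8 were higher in Tis11 kd than in GFP kd without LPS, with a median difference of 0.32. With LPS 5 of 8 were higher, with a median of 0.09. Among all probe sets that average 6 or more, 55.5% were above 0 without LPS and 26.8% with LPS. The largest hemocyte difference in both was that of Pxn, 1.48 and 1.10, an mRNA that the study took as Tis11-sensitive. Whether the make-up of the cultures took part in the differences of the tetraspanins was not tested.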

How the data were processed

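RNA of SL2 cells was hybridised to 12 Affymetrix Drosophila Genome 2.0 arrays. The authors processed them with RMA (background correction, quantile normalization, median polish), and the deposited values are log2 signals, used as they stand. The sources used here do not say if the 12 arrays went through RMA as 1 set. Of 18952 probe sets, 183 controls were left out and 18769 tested. The platform annotation names 1 gene for 13647 and several for 402. A gene was represented by its probe set with the highest mean. RefSeq (Release 6) served only for names, chromosome arm and gene order.

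Each comparison was fitted on its own 6 arrays and the interaction on all 12 with limma 3.58.1 (lmFit, eBayes) in R 4.3.3, with Benjamini-Hochberg adjustment over all probe sets. limma was tested on simulated data. The p-values measure the spread between 3 biological repeats, whose number limits the precision. The fits did not pair arrays between groups. All members are named; statistics are given for Tsp42Ef and for expressed members that differ by at least 0.3. The members, the lists and this rule were chosen with earlier results of these data known. Figures were drawn with matplotlib 3.10.9.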

Additional observations from a re-analysis of the deposited data

How the results depend on the processing

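The number of members passing the limma test was 0 under each alternative run: the replicate block, a fit of all 12 arrays, a filter at a mean of 6, centring on the median, quantile normalization again, an intensity trend, genes in place of probe sets, the methods' t-test, and leaving out each array. The replicate numbers do not pair the arrays, since deviations of same-numbered arrays correlated from −0.83 to 0.87. The arrays could be matched across groups, mostly under other numbers. Replicates 1, 2 and 3 of Tis11 kd deviated together with replicates 3, 1 and 2 of GFP kd (r = 0.92, 0.93 and 0.80). Those of Tis11 kd + LPS did so with replicates 1, 3 and 2 of GFP kd + LPS (0.86, 0.89 and 0.89). They also matched replicates 3, 1 and 2 of Tis11 kd (0.59, 0.70 and 0.47). Replicates 1, 2 and 3 of GFP kd + LPS matched replicates 2, 1 and 3 of GFP kd (0.74, 0.67 and 0.87). The labels do not give this matching and it was not modelled. Standard errors, p-values and overlaps therefore include variation that matched arrays share, and the replicate block uses the numbers as labelled. In groups of equal size that block cannot move a difference (0.61 for Tsp42Ef without and 0.44 with LPS), and the adjusted limma p of Tsp42Ef was 1.00 in both. Leaving out 1 array gave 0.55 to 0.67 and 0.32 to 0.56 for these. The medians of the expressed members ran from −0.027 to 0.16 for Tis11 kd, −0.22 to 0.12 with LPS, −0.14 to 0.085 for LPS in Tis11 kd and −0.029 to 0.19 in GFP kd, so each changed sign. The count of expressed members was 12 in all settings other than a level of 5 (16) or 7 (9).

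Members beyond 0.5 in either direction numbered 1 for Tis11 kd (1 to 3 leaving out an array), 1 with LPS (1 to 3), 3 for LPS in Tis11 kd (2 to 4) and 2 for LPS in GFP kd (0 to 4). Quantile normalization again gave 2 for Tis11 kd with LPS. With a threshold of 1 the counts were 0, 0, 1 and 0. Signs turned in single omissions. The Tis11 difference of Tsp39D (−0.0031 to 0.55) was below 0 without replicate 1 of Tis11 kd, and that of Tsp42Eg (−0.24 to 0.79) without replicate 3 of GFP kd. The LPS difference in Tis11 kd of Tsp96F (−0.67 to 0.028) was above 0 without replicate 1 of Tis11 kd, and that of Tsp42Ef (−0.19 to 0.031) without replicate 3 of Tis11 kd + LPS. The LPS difference of Tsp42Ef averaged over knockdowns, −0.0078 (−0.058 to 0.055), was 0.055, 0.022, 0.049 and 0.011 without replicate 3 of Tis11 kd + LPS or replicate 2 of Tis11 kd, GFP kd + LPS or GFP kd. Each omission also left the matched arrays of other groups without their partner. Whether this turned the signs was not tested.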
